A study of Mus musculus and Homo sapiens with 43 samples.

Results

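Ribosome-associated mRNA of mouse mammary tumors was compared between animals that carried a deletable Lars allele and animals with both Lars alleles intact. Lars encodes cytosolic leucyl-tRNA synthetase, the enzyme that joins leucine to its tRNAs. The mRNA was isolated by RiboTag, a method in which cells that express Cre recombinase make the ribosomal protein Rpl22 with an HA tag, so that their ribosomes and the mRNA bound to them can be pulled out of whole tissue. The 2 groups had 3 libraries each. The Lars heterozygous tumors were Lars fl/wt and the wild-type tumors were Lars wt. All 6 libraries came from the strain C57BL/6J, and both groups carried MMTV-PyMT+, MMTV-Cre+ and 1 tagged ribosomal allele, rpl22HA fl/wt. The wild-type tumors therefore also express Cre and tagged ribosomes. The labels give no age.

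The description covers the genes whose mean normalized count reached 100 in the authors' deposited comparison, with 1 entry per gene symbol. These were 10875 of 23487 genes, or 46.3%, and they held 99.3% of the summed mean normalized count. The mean normalized count is the average over the 6 libraries of reads divided by each library's size factor. It is not divided by transcript length, so it tells how many reads a gene took and not how many mRNA molecules there were. Just inside the limit stood Ndrg4 at 100.1 and C3ar1 at 100.1 in the authors' deposited table, and just outside it Stard13 at 99.97 and A630023A22Rik at 99.87. The RefSeq annotation held 10848 of the 10875 genes, of which 10668 were protein-coding and 126 long noncoding.

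As background, the polyoma middle T antigen (PyMT) under the MMTV promoter drives tumors of luminal mammary epithelium by recruiting Src family kinases, phosphatidylinositol 3-kinase and the adaptor Shc. The MMTV promoter is active mainly in mammary epithelium and also in some other epithelia and in blood cells. Luminal cells line the ducts and alveoli and make milk proteins under prolactin. Basal or myoepithelial cells surround them, contract in response to oxytocin and carry keratins 5 and 14. An aminoacyl-tRNA synthetase sets how much of its tRNA is charged, and uncharged tRNA is sensed by the kinase Gcn2, which turns on the transcription factor Atf4.

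The authors' deposited table holds no value per library, so values in single tumors, the spread between them and refits without a library were not analysed here. The spread enters only through the deposited standard error (SE) of each log2 fold change. Which genotype is the numerator is not stated, so genes are described as standing on the positive or the negative side. Genes with a single read in 1 library gave the relative size factors of the libraries, from 0.44 to 1.31. The positive side held 0.44, 1.16 and 1.26, and the negative side 1.07, 1.18 and 1.31. The 1 shallow library therefore lies on the positive side, and its part in the results below was not tested. The mean normalized counts of all genes summed to 20882429 per library.

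Luminal markers had the highest median count of 13 marker lists, as the plot of cell type markers by level shows. Of 28 luminal markers, 26 reached the limit, with a median of 5874 over all 28. In the authors' deposited table the adhesion molecule gene Epcam stood at 37552, the keratin genes Krt18 and Krt8 at 37519 and 21864, and E-cadherin (Cdh1) at 14357. Regulators of the alveolar and luminal fate had large counts too, with Ehf at 19568, Elf5 at 15336, Gata3 at 6057 and the stem cell factor receptor Kit at 5692 in the authors' deposited table. The hormone receptor genes had few reads in the same table, with the estrogen receptor gene Esr1 at 141 and the progesterone receptor gene Pgr at 77.3, below the limit. Prlr, the prolactin receptor gene, stood at 1178 in the authors' deposited table.

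**Figure D1:**
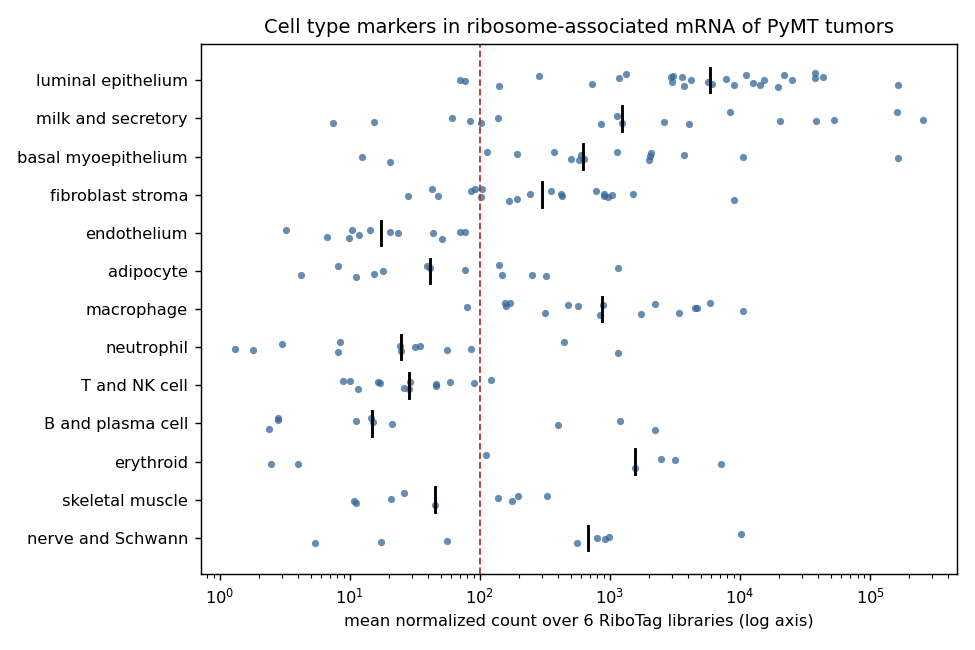
Mean normalized count over the 6 RiboTag libraries (log axis) of each gene in 13 marker lists, 1 point per gene, with the median of the list as a black bar and the limit of 100 as a dashed line. The luminal median lies at 5874, the basal median at 616 and the endothelial median at 17.4, with all 12 endothelial genes below the limit.

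Genes of secreted proteins were the first 5 by count. The 10 genes with the largest counts held 6.92% of the summed count, the 100 largest 19.8% and the 1000 largest 52.0%. First came Wfdc18, which encodes a small secreted protein of the whey acidic protein family, at 308080.2 in the authors' deposited table (mm10 chromosome 11, 83709004 to 83711360). Csn3, the gene of kappa-casein (chromosome 5, 87925579 to 87932550, overlapping 1700066N21Rik), followed at 255149.7 in that deposited table of the authors. The iron-binding and carrier protein genes Lcn2 at 164190.2 and Trf at 160066.5, and the insulin-like growth factor binding protein gene Igfbp5 at 163084, came next in the authors' deposited table. Further down the 15 largest in the authors' deposited table were Ly6e at 102857, the secretoglobin gene Scgb2b27 at 85664, the chaperone gene Hsp90ab1 at 71839 and the elongation factor gene Eef1a1 at 68792. The cytoskeletal genes Tmsb4x and Actb, the histone gene H3f3b, the class I antigen gene H2-K1, the osteopontin gene Spp1 and Itm2b made up the rest, at 51980 to 65540 in the authors' deposited table. Wfdc18, Igfbp5 and H2-K1 differ in transcript length, so these counts are not a ranking of molecules.

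Milk protein genes were uneven. Of 17 milk and secretory genes, 13 reached the limit, and together the 17 held 2.61% of the summed count. Beside Csn3, the alpha-lactalbumin gene Lalba stood at 38500.3 and the milk fat globule gene Mfge8 at 20220.5 in the authors' deposited table. The other caseins were low in the authors' deposited table, with Csn1s1 at 848, Csn1s2a at 103 and beta-casein (Csn2) at 61.1, below the limit, while the whey acidic protein gene Wap stood at 1141. Csn3 therefore took nearly all reads of the casein genes, without a correction for length.

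The lists of other cell types had lower median counts than the luminal list. Single genes of these lists, such as Cd74, Sox10 and Sparc, stood above the luminal median of 5874. None of the 12 endothelial genes reached 100 reads, and the highest was Flt1 at 76.8 in the authors' deposited table. For T and NK cells 1 of 13 genes reached it, the pan-leukocyte gene Ptprc at 122, and for neutrophils 2 of 13 did, S100a8 at 1149 and S100a9 at 442 in the authors' deposited table. Macrophage genes took more reads. Of their 16 genes, 15 reached the limit, among them the invariant chain gene Cd74 at 10489 and C1qa at 3391 in the authors' deposited table, and together they held 0.175% of the summed count. Of 20 fibroblast genes 15 reached it, led by Sparc at 8977 in the authors' deposited table, although the collagen genes Col1a1 and Col3a1 stood at only 424 and 428. Hemoglobin genes summed with other erythroid genes to 0.0691%, and the immunoglobulin gene Igkc stood at 2224 in the authors' deposited table. Of the 8 genes listed for nerve and Schwann cells, Sox10 had the largest count, 10119 in the authors' deposited table. All 8 summed to 13458, and the lowest stood at 5.43. Whether the Sox10 reads came from nerve, from Schwann cells or from the tumor epithelium was not tested. In these bulk pulldowns, fewer cells of a type and less RNA per cell cannot be told apart, nor can RNA from cells without the tag that was carried along.

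Lars was the gene that the genotype changes. Its log2 fold change was -0.75 (SE 0.43) with an unadjusted p of 0.0807 in the authors' deposited table, at a mean normalized count of 1362. The 95% interval ran from -1.59 to 0.09 and included 0. Lars lies on mm10 chromosome 18, from 42202298 to 42262237, and overlaps the pseudogene Rps19-ps4. Reads from exons outside the deleted part would still count, and the deleted exons are not stated in the labels. As Lars did not pass the threshold, its sign does not fix the direction of the comparison. Among all 10875 genes, 263 (2.42%) had a lower log2 fold change than Lars, and 80 genes on the negative side had a smaller p.

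Lars had the lowest value of the 22 measured genes of cytosolic tRNA synthetases and their scaffold proteins, shown in the plot of synthetases with their intervals. The median of the 22 was 0.09, with 14 positive and 8 negative. Next to Lars stood the scaffold gene Aimp2 at -0.54 (SE 0.55), then the aspartyl enzyme gene Dars at -0.48 and the lysyl enzyme gene Kars at -0.41 in the authors' deposited table. At the other end were Eprs, the glutamyl-prolyl enzyme gene, at 0.52 (SE 0.43) and the alanyl enzyme gene Aars at 0.42 in the authors' deposited table. The isoleucyl enzyme gene Iars, whose product handles another branched-chain amino acid, stood at 0.34, and the valyl enzyme gene Vars at 0.20 in that deposited table of the authors. None of the 22 had an unadjusted p under 0.05, against 1.34% of the 10875 genes, and all 22 intervals included 0. The mitochondrial counterpart Lars2 stood at -0.19 (SE 0.47) in the authors' deposited table.

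**Figure D2:**
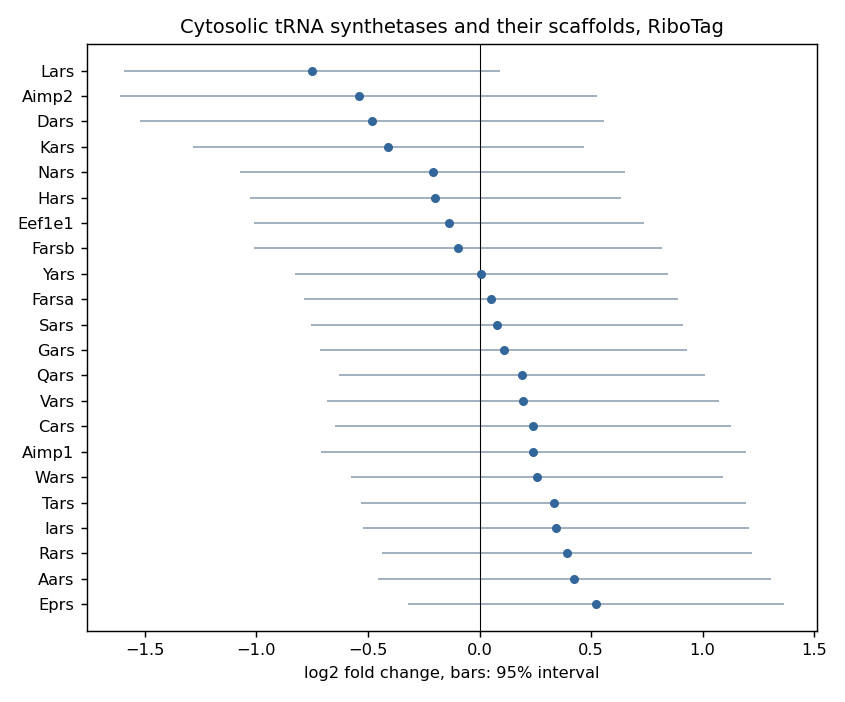
Log2 fold change of 22 cytosolic tRNA synthetase and scaffold genes (horizontal axis) with 95% intervals as bars, ordered by value. Lars is lowest at -0.75 and Eprs highest at 0.52, and every interval includes 0.

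No gene with a value here passed the test between the genotypes. Of 23487 genes in the authors' deposited table, 0 (0%) lay under 0.05 after the DESeq2 adjustment, and the smallest adjusted p was 0.121. At an unadjusted p under 0.05 there were 280 (1.19%), of which 204 (0.869%) were positive and 76 (0.324%) negative. Among the 10875 genes above the limit, 146 (1.34%) had an unadjusted p under 0.05, 97 of them positive (0.892%) and 49 negative (0.451%). With a t distribution of 4 degrees of freedom in place of the normal, these counts were 27 and 5. The deposited adjusted p-values of the 6 smallest p matched a Benjamini-Hochberg adjustment over 27801 tests in which 1 further test had a smaller p. The 4306 tests beyond the 23495 rows used here, that test among them, are not analysed here.

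The log2 fold changes lay close to 0 and the sides were nearly balanced in number but not in their tails. The median was -0.02, with quartiles at -0.23 and 0.20, and 5205 genes were positive against 5670 negative. A log2 fold change of at least 1 in size was seen in 251 genes (2.31%), 166 positive and 85 negative. At an unadjusted p under 0.01 there were 33 positive and 10 negative genes among the 10875. The plot of log2 fold change against level shows this tail on the positive side. The 1.34% of genes with an unadjusted p under 0.05 is a smaller share than the 0.05 that evenly spread p-values would give. The tail is therefore not read as an excess of changed genes.

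**Figure D3:**
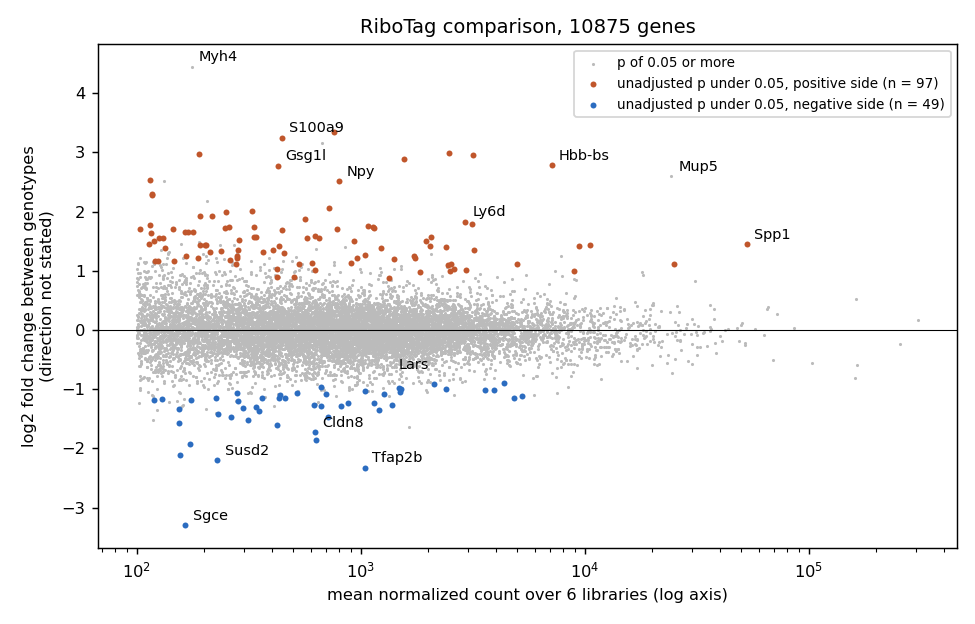
Log2 fold change between the genotypes (direction not stated) against mean normalized count over 6 libraries (log axis) for 10875 genes, with the 97 positive and 49 negative genes of unadjusted p under 0.05 in color. The positive tail reaches from Spp1 at 1.45 to S100a9 at 3.25 among the labelled colored genes, and Sgce at -3.30 is the lowest.

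On the positive side, the 10 named genes with the smallest p-values included Npy, S100a9 and 4 globin genes. Npy, the gene of neuropeptide Y (chromosome 6, 49822710 to 49829507), stood at 2.51 (SE 0.57) with an unadjusted p of 8.69e-06 and a DESeq2 adjusted p of 0.121 in the authors' deposited table. That was a 5.71-fold difference at a mean normalized count of 802. S100a9, which encodes a subunit of calprotectin from neutrophils (chromosome 3, 90692630 to 90695721), stood at 3.25 (SE 0.79, DESeq2 adjusted p = 0.209) in the authors' deposited table. Its partner S100a8 stood at 1.73 (SE 0.60, unadjusted p = 0.00416) in the same deposited table of the authors. Gsg1l, whose product modulates glutamate receptors (chromosome 7, 125878412 to 126082757, overlapping Gm51456), stood at 2.78 (SE 0.68, DESeq2 adjusted p = 0.209) in the authors' deposited table.

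Ly6d, the gene of a surface protein found on keratinocytes, luminal cells and early B cells (chromosome 15, 74762056 to 74763567), stood at 1.83 (SE 0.51) with an unadjusted p of 0.000314 in the authors' deposited table. The growth arrest gene Rprm, a p53 target, stood at 2.29 (SE 0.64) in the authors' deposited table, at a mean normalized count of only 116. F13a1, a coagulation factor gene also made by macrophages, stood at 1.69 (SE 0.51) in the authors' deposited table. The 4 adult globin genes completed the 10 named genes with the smallest p-values on this side. Hba-a2 stood at 2.99, Hba-a1 at 2.96, Hbb-bt at 2.88 and Hbb-bs at 2.79 in the authors' deposited table. Their SE of 0.84 to 0.85 was wider than the median SE of 0.48, and the copies of each globin are nearly identical, so reads could be divided between them. Chil3, a chitinase-like gene of macrophages and granulocytes, stood at 2.98 (SE 1.05) in the authors' deposited table.

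The negative side held fewer and mostly unrelated genes. Sgce, an imprinted gene that encodes epsilon-sarcoglycan (chromosome 6, 4674350 to 4747204), stood at -3.30 (SE 0.77) with an unadjusted p of 1.95e-05 and a DESeq2 adjusted p of 0.181 in the authors' deposited table. That was a 9.82-fold difference at a mean normalized count of 165. Susd2, the gene of a sushi domain membrane protein (chromosome 10, 75636619 to 75644008), stood at -2.20 (SE 0.61) with an unadjusted p of 0.000311 in the authors' deposited table. Tfap2b, a transcription factor gene of luminal mammary cells (chromosome 1, 19208908 to 19238845), stood at -2.32 (SE 0.67) with an unadjusted p of 0.000573 in the authors' deposited table, where its mean normalized count was 1040.

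Gsta4, a glutathione transferase gene that detoxifies lipid peroxidation products (chromosome 9, 78191966 to 78209349), stood at -1.60 (SE 0.47) in the authors' deposited table. The immunoglobulin heavy chain genes Ighm and Ighg2c stood at -1.35 (SE 0.49) and -2.11 (SE 0.94) in the authors' deposited table, while Ighg3 stood on the other side at 2.17 with an SE of 2.08. Scgb2b24 stood at -1.56, the neuronal serpin gene Serpini1 at -1.29, Tmem82 at -1.93, Tmem35 at -1.29 and Afap1l1 at -1.47 in the authors' deposited table. They completed the 10 named genes with the smallest p-values on this side. Of these, Scgb2b24 belongs to a family of close copies, and Scgb2b27 of the same family stood at 0.04 in the authors' deposited table.

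Gene lists were described by their counts and medians, since no gene passed the adjusted test. In the plot of gene lists, the basal and myoepithelial list lay farthest to the positive side among epithelial lists. All 14 of its genes above the limit were positive, with a median of 1.06 against -0.02 for all 10875 genes, and 6 had an unadjusted p under 0.05 (1.34% over all). The basal keratin genes Krt5 and Krt14 stood at 1.74 (SE 0.77) and 1.57 (SE 0.62) in the authors' deposited table. Trp63, the master regulator of basal epithelium (chromosome 16, 25683763 to 25892088, overlapping Gm24928), stood at 1.55 (SE 0.60) with an unadjusted p of 0.00912 in the authors' deposited table. Among contractile genes, smooth muscle actin Acta2 stood at 1.43 and calponin Cnn1 at 1.41 in the authors' deposited table, as did the oxytocin receptor gene Oxtr at 1.14. Igfbp5, which held most of the list's reads, stood at 0.53 (SE 0.51) in the authors' deposited table.

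**Figure D4:**
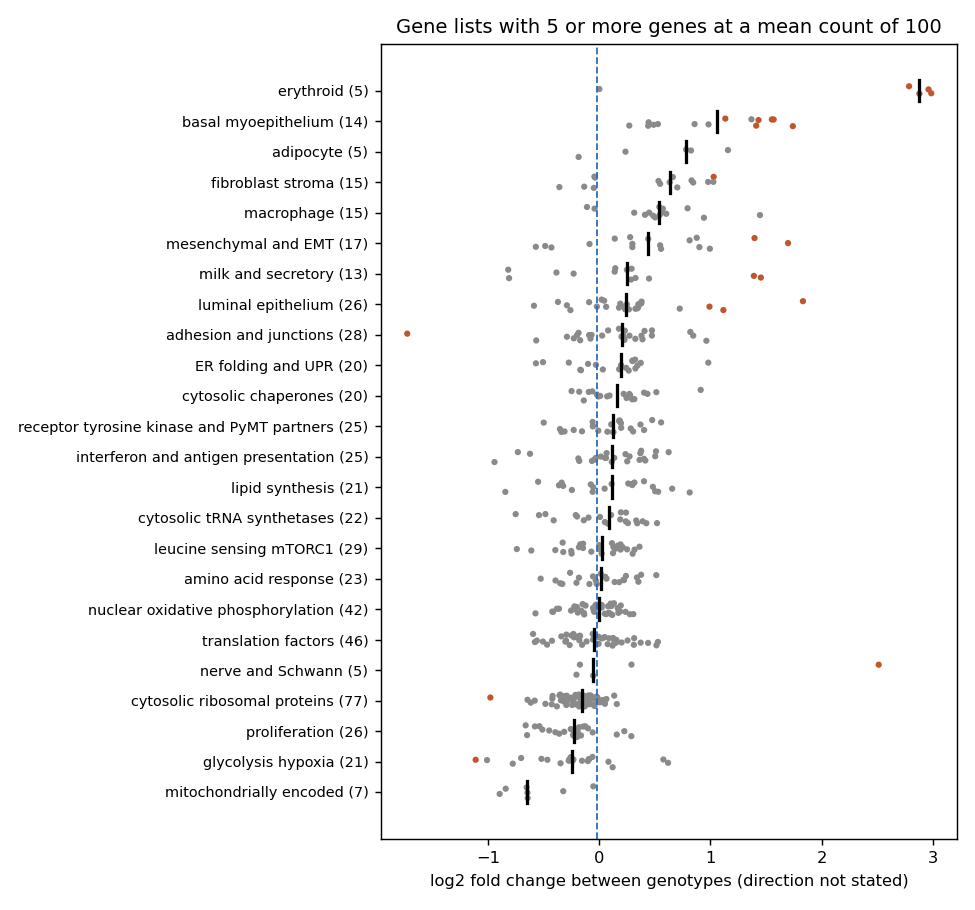
Log2 fold change (direction not stated) of the genes that reach a mean count of 100 in each list of 5 or more such genes, 1 point per gene, orange where the unadjusted p is under 0.05, with the list median as a black bar and the median of all 10875 genes (-0.02) as a dashed line. The erythroid median lies at 2.88 and the basal median at 1.06, while the mitochondrially encoded list lies lowest at -0.64.

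Luminal and secretory genes stood nearer to 0. Of 26 luminal genes, 20 were positive with a median of 0.24, and 3 had an unadjusted p under 0.05, against 1.34% of all 10875. These were Ly6d, the keratin gene Krt19 at 0.99 (SE 0.50) and the lactoferrin gene Ltf at 1.12 (SE 0.54) in the authors' deposited table. The luminal keratins with the largest counts, Krt18 and Krt8, stood at 0.35 and 0.33, and Epcam at 0.19 in the authors' deposited table. Of 13 milk and secretory genes, 9 were positive with a median of 0.25, and 2 had an unadjusted p under 0.05 (1.34% over all). Spp1, the gene of osteopontin, a secreted phosphoprotein of milk and of macrophages (chromosome 5, 104435111 to 104441053), stood at 1.45 (SE 0.52) with an unadjusted p of 0.00484 in the authors' deposited table. Btn1a1, which encodes the butyrophilin of the milk fat globule, stood at 1.39 (SE 0.59) in the authors' deposited table. Against them, Trf at -0.82 (SE 0.44), Wap at -0.81 (SE 0.68) and Lalba at -0.38 (SE 0.58) were negative in the authors' deposited table.

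Junction genes had a median of 0.21, with 18 of 28 positive and 1 gene of unadjusted p under 0.05 (1.34% over all). That gene was Cldn8, a claudin of tight junctions (chromosome 16, 88560826 to 88563183), at -1.73 (SE 0.75) in the authors' deposited table. The claudins with larger counts stood at -0.29 for Cldn3, -0.09 for Cldn4 and 0.23 for Cldn7 in the authors' deposited table. Lamb3, which encodes a laminin chain of the basement membrane, stood at 0.96 with an unadjusted p of 0.073 in the authors' deposited table. Of 17 mesenchymal genes 13 were positive with a median of 0.44, and 2 had an unadjusted p under 0.05 (1.34% over all), the matrix gene Tnc at 1.70 and the membrane protease gene Mmp14 at 1.40 in the authors' deposited table. In the authors' deposited table, the epithelial membrane protein gene Emp3 (chromosome 7, 45918023 to 45921426) had a log2 fold change of 0.88 (SE 0.60). For the gamma-glutamyltransferase gene Ggt5 (chromosome 10, 75589327 to 75617200, overlapping Gm26402) the authors' deposited table gave 1.39 (SE 0.71). Its unadjusted p was 0.04999 in the authors' deposited table, at the edge of the 0.05 threshold.

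Among marker lists of cells outside the epithelium, the erythroid, neutrophil, macrophage, fibroblast and adipocyte lists had positive medians, and the B and plasma cell list and the nerve and Schwann cell list had negative ones. Of 5 erythroid genes above the limit, 5 were positive and 4, the globins, had an unadjusted p under 0.05. The share over all 10875 genes, 1.34%, is the background for this count and for those of the macrophage and fibroblast lists. The erythroid enzyme gene Alas2 stood at 0.00 (SE 0.60) in the authors' deposited table. Of 15 macrophage genes 13 were positive with a median of 0.54, and 0 had an unadjusted p under 0.05, with the mannose receptor gene Mrc1 at 1.45 and C1qa at 0.94 in the authors' deposited table. Of 15 fibroblast genes 10 were positive with a median of 0.63, and 1, Col1a1 at 1.03 (SE 0.51), had an unadjusted p under 0.05 in the authors' deposited table. Of 5 adipocyte genes 4 were positive, with Lpl, the lipoprotein lipase gene, at 1.16 in the authors' deposited table. Their median was 0.78, and it was 0.51 over 6 genes with a limit of 50 and 0.24 over 3 genes with a limit of 200. The 3 B and plasma cell genes above the limit were negative, with a median of -0.28. The 2 neutrophil genes were positive with a median of 2.49, which was 1.58 over 4 genes with a limit of 50. The only gene of the T and NK cell list above the limit was Ptprc, which marks all leukocytes, at 0.28 in the authors' deposited table. The next by count, Lck and Gzmb, were below the limit and had values of -0.03 and -0.85 in the authors' deposited table. The 4 skeletal muscle genes were split, 2 and 2, with Myh4 at 4.44 (SE 3.11) and the myoglobin gene Mb at -0.97 (SE 0.53) in the authors' deposited table. Of the 5 nerve and Schwann cell genes 2 were positive, Npy and Ncam1, with a list median of -0.05. The defining genes Ms4a1 of B cells, Ly6g of neutrophils and Plin1 of adipocytes stood at mean normalized counts of 1.31 to 4.22 in the authors' deposited table. The shallow library lies on the positive side of the comparison and enters every log2 fold change. This holds for the lists with positive medians, the basal list among them, and for those with negative medians. Its part, and that of other cell types, was not tested.

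Genes of growth leaned the other way by a small amount. Of 26 proliferation genes 23 were negative, with a median of -0.23 and 0 with an unadjusted p under 0.05 (1.34% over all). The cyclin genes Ccnb2 and Ccnd1 stood at -0.66 (SE 0.48) and -0.39 in the authors' deposited table, and the exceptions were Mki67 at 0.29, Plk1 at 0.23 and Rrm1 at 0.16. Of 21 genes of glycolysis and hypoxia 17 were negative with a median of -0.24, and 1 had an unadjusted p under 0.05 (1.34% over all). That gene was Egln3, which encodes a prolyl hydroxylase that marks hypoxia-inducible factor for destruction, at -1.11 (SE 0.53) in the authors' deposited table. The glycolytic genes Pgam1 at -1.01, Gapdh at -0.78 and Eno1 at -0.70 stood lower in the authors' deposited table than Ldha at 0.12 and Pkm at 0.08.

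The translation machinery itself showed small values. Of 77 cytosolic ribosomal protein genes 66 were negative, with a median of -0.15, and 1 had an unadjusted p under 0.05 (1.34% over all), Rpl23a at -0.98 (SE 0.47) in the authors' deposited table. Rpl23a overlaps Tlcd1 and small nucleolar RNA genes, and ribosomal protein genes have many processed copies, so single values are uncertain. Rpl22, the gene that carries the tag in both groups (chromosome 4, 152324436 to 152334082), stood at -0.29 (SE 0.54) in the authors' deposited table, where its mean normalized count was 12789. Its paralog Rpl22l1 stood at 0.03 in the authors' deposited table. Of 46 translation factor genes 27 were negative with a median of -0.05, from Eif4ebp1, which encodes a translation inhibitor controlled by mTORC1, at -0.59 to Eif3c at 0.53 in the authors' deposited table. Of 13 mitochondrially encoded genes 7 had a value. All 7 were negative with a median of -0.64, from mt-Cytb at -0.89 (SE 0.68) to mt-Nd5 at -0.05 in the authors' deposited table. Their median SE was 0.67, and 0 had an unadjusted p under 0.05 (1.34% over all). Mitochondrial transcripts are made and translated outside the tagged cytosolic ribosomes. The 42 nuclear genes of oxidative phosphorylation were split evenly, 21 and 21, with a median of -0.00.

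Lists of the amino acid response were centred on 0. Of 23 genes of the Gcn2 and Atf4 response 12 were positive, with a median of 0.02. Of the 23, 0 had an unadjusted p under 0.05, against 1.34% of all 10875 genes. The transcription factor gene Atf4 stood at 0.18 (SE 0.49), asparagine synthetase Asns at 0.24 (SE 0.57) and the pseudokinase gene Trib3 at 0.22 in the authors' deposited table. The 95% interval of Asns ran from -0.88 to 1.36. The other 11 genes of this list were negative. Among them were Aldh18a1 at -0.53 (SE 0.58), Ddit3 at -0.39 (SE 0.49) and Nupr1 at -0.35 (SE 0.51) in the authors' deposited table. Of 29 genes of leucine sensing and mTORC1 17 were positive with a median of 0.02, from Rragd, a Rag GTPase gene, at -0.74 (SE 0.50) to Gatsl3, an arginine sensor gene, at 0.36 in the authors' deposited table. For Sesn2, a leucine sensor gene, the authors' deposited table gave -0.18, and for Slc7a5, which encodes the main leucine importer, 0.35.

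Other lists had medians between 0.11 and 0.20. They held 20 genes of folding in the endoplasmic reticulum, 20 cytosolic chaperones, 21 of lipid synthesis, 25 of interferon and antigen presentation, and 25 of receptor tyrosine kinases and partners of PyMT. None of these lists held a gene of unadjusted p under 0.05, against 1.34% of all 10875 genes. The most positive by p were the chaperone genes Hsp90b1 at 0.98 (SE 0.52) and Hsp90aa1 at 0.91 (SE 0.56), and the sterol synthesis gene Cyp51 at 0.81 (SE 0.52) in the authors' deposited table. Each list also held negative genes. The smallest p on that side was that of Ifit2 in the interferon list, at -0.94 (SE 0.55). It was that of Idi1 in the lipid list, at -0.84 (SE 0.67), and of Xbp1 in the folding list, at -0.57 (SE 0.46). Of the partners of PyMT, Src stood at -0.06, Shc1 at -0.15, Pik3r1 at -0.06 and Ppp2r1a at 0.20 in the authors' deposited table. Farther from 0 were the Src family kinase gene Fyn at -0.50 (SE 0.49) and the receptor gene Erbb2 at 0.56 (SE 0.45).

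The SE set what could be seen. Its median was 0.48, so a gene needed a log2 fold change of about 0.93 in size, or 1.91-fold, for an unadjusted p under 0.05. The SE did not fall below 0.41 for any of the 10875 genes, even at the largest counts, as the plot of SE against level shows. In the 1088 genes with the lowest counts, up to 178, the median SE was 0.56, and in the 1088 with the highest, from 3755 up, it was 0.46. The SD of the log2 fold changes in these sets was 0.56 and 0.33. The SD of the Wald statistic, the log2 fold change divided by its SE, was 0.72 over the 10875 genes, where a standard normal distribution has 1.

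A separate set of 15 genes had an SE from 1.76 to 3.11, while the highest SE of all others was 1.12. The fast skeletal myosin gene Myh4 had the widest, with 4.44 (SE 3.11) in the authors' deposited table. The major urinary protein gene Mup5, of a family with near-identical copies, had by far the largest count of them at 24310 and stood at 2.60 (SE 1.90) in the authors' deposited table. Prol1 at 3.16 (SE 1.78) and Bpifb5 at 1.06 (SE 1.82), genes of secreted gland proteins, and the apolipoprotein gene Apoc1 at -1.63 (SE 1.87) were also among them in the authors' deposited table. So was Bckdha, which encodes a subunit of the enzyme that breaks down branched-chain amino acids, at -1.22 (SE 1.76) in the authors' deposited table. Others were genes with broad expression, such as the splicing factor gene Srsf4 at -1.40 (SE 2.01) and the autophagy gene Atg9a at -0.10 (SE 1.96) in the authors' deposited table. None of the 15 had an unadjusted p under 0.05, against 1.34% of all 10875 genes.

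**Figure D5:**
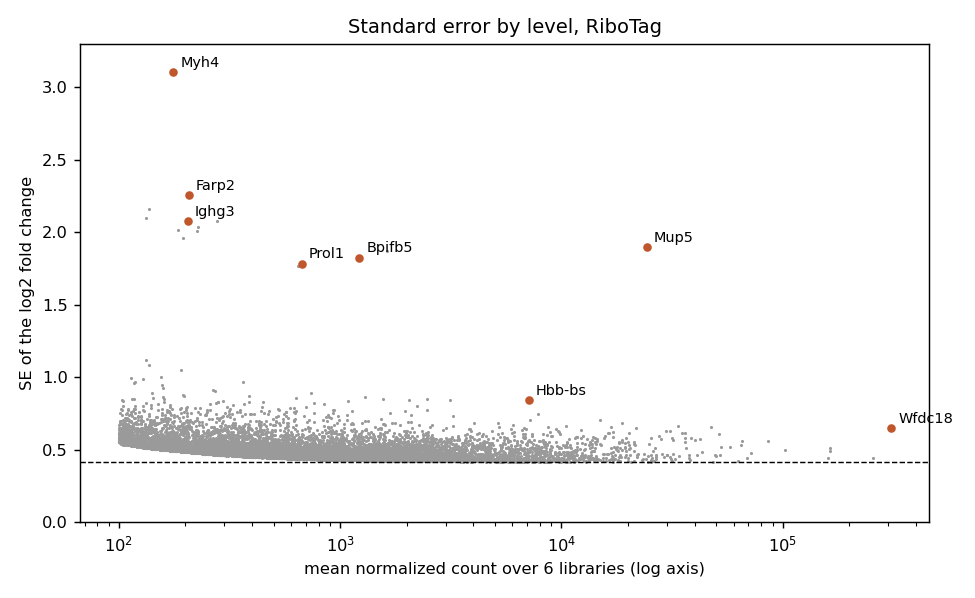
Standard error of the log2 fold change against mean normalized count over 6 libraries (log axis) for 10875 genes, with the lowest SE of 0.41 as a dashed line. The labelled points Myh4, Farp2, Ighg3, Mup5, Bpifb5 and Prol1 lie between 1.78 and 3.11, apart from the other genes, while Hbb-bs and Wfdc18 lie at 0.84 and 0.65.

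By chromosome, the medians ran from -0.12 on chromosome 16 to 0.04 on chromosome 3. On chromosome 16, 35.5% of 355 genes were positive, and on chromosome 4, 40.1% of 716 with a median of -0.08, against 44.2% to 56.3% on the other 18 chromosomes. Chromosome 18, which carries Lars, had 273 genes with a median of -0.01 and 48.7% positive. No test was made of these shares.

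The RiboTag values had no visible relation to the changes in 4T07, a mouse mammary carcinoma line in which Lars was knocked down and mRNA and ribosome footprints were measured. Across 8873 genes with both values, Spearman's rho was -0.00 with the 4T07 mRNA change, -0.04 with the footprint change and -0.05 with the efficiency change. The sign was the same in 50.2%, 48.0% and 47.2% of genes. If the RiboTag direction were reversed, these rho values would change sign and remain as small. The 2 tables share no libraries, and genes of 1 table share its libraries and depth. Of the 97 positive genes with an unadjusted p under 0.05, 36 had a 4T07 value, of which 18 were positive in mRNA and 14 in footprints. Of the 49 negative genes 24 had one, of which 11 were positive for mRNA and 11 for ribosome footprints. Over all genes, 8873 of 10875 had one, so most of the genes with an unadjusted p under 0.05 are missing from this comparison. The share of positive 4T07 changes over all 8873 genes was not computed, and no result is read from these counts. The authors' deposited table for 4T07, whose direction is knockdown over control, gave Lars -1.46 for mRNA and -1.23 for footprints. Spp1 stood at -0.47 and -0.55, and Emp3 at 0.37 and -0.08, in the same deposited table of the authors.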

How the data were processed

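Per the labels' protocols, RiboTag sequencing used TruSeq RNA v2 kits, which keep no strand, and reads of a gene and an antisense neighbor cannot be separated. Tools listed in the submitters' processing notes are DESeq2, HTSeq, featureCounts, SAMtools, STAR 2.5.2a and Bowtie2 2.4.1, with the build mm10, and no roles. Per the file headers, the deposited table is a DESeq2 result of the authors. Its mean normalized count is a signal averaged over the libraries after the authors' size factors. The deposited log2 fold change and its SE are on the log2 scale, and the deposited Wald statistic is a score equal to their ratio. The deposited p-values come from the Wald test, each beside its adjusted value. Per the file headers, xtail gave the 4T07 log2 changes. The covariates of the authors' model are not given in the sources used here.

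Of 23495 rows, 1 had no symbol and 7 had the symbol of another row with more reads, and these were left out, and each of the 23495 IDs was found in the gene name table. A gene passed at a deposited adjusted p under 0.05. As no refit was possible, the deposited comparison stands in for a count test. Intervals are 95% normal intervals from the deposited SE. Nothing in the labels says whether the libraries came from separate animals, so p-values may measure technical spread only. Relative size factors, an addition made after seeing the data, came from the mean counts that many genes share because each has 1 read in 1 library. Coordinates are from RefSeq GRCm38.p6, the assembly behind mm10, and 57 of the 150 named genes overlap another annotated gene. Named genes, symbols of the Gm, Rik or BC kind and pseudogenes left out, were the 15 largest counts, the 10 smallest p and 5 largest changes on each side, 3 largest counts and smallest p on each side of each list, and Lars, Emp3, Ggt5 and Rpl22. Other genes named from a list, and those of wide SE, were chosen after their values were seen. The genes described and the 29 gene lists were chosen with earlier results of these data known. Levels per kb and protein composition, also planned, needed transcript lengths and proteins that were not used here. Benjamini-Hochberg adjustment and rank correlation were tested on simulated data. Computations used Python 3.11.15 with matplotlib 3.10.9, scipy 1.17.1, pandas 2.3.3 and numpy 2.4.6.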

Additional observations from a re-analysis of the deposited data

How the results depend on the processing

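The count of genes past the adjusted threshold remained 0 with the Benjamini-Hochberg adjustment of the deposited p-values recomputed over all 23495 rows (smallest adjusted p 0.204), over 14227 rows with a mean count of at least 10 (smallest 0.124) and with a t distribution of 4 degrees of freedom in place of the normal (smallest 1.00). That t distribution lowered the genes of unadjusted p under 0.05 from 97 to 27 on the positive side and from 49 to 5 on the negative side. Limits of 50 or 200 on the mean count, all rows per symbol and centring on the median gave 74 to 141 positive and 41 to 60 negative genes, and centring moved the positive share from 66.4% to 68.8%. The median log2 fold change ran from -0.02 to -0.01 over its alternatives. In 55 recomputed list medians the sign changed in 4, each in a list with a median near 0 or of few genes: T and NK cells, nerve and Schwann cells, the amino acid response and skeletal muscle. The adipocyte median of 0.78 became 0.51 and 0.24 with limits of 50 and 200. The neutrophil median of 2.49 over 2 genes became 1.58 over 4 genes with a limit of 50, and the skeletal muscle median of 0.44 over 4 genes became -0.97 for 1 gene with a limit of 200. No paired analysis was possible because the table holds no value per library, and leaving out replicates was not run for the same reason. Levels per kb of the longest transcript and protein composition were not run either.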
